A study of Mus musculus with 4 samples.

Results

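The genes described here encode inward rectifier, two-pore domain, calcium-activated and sodium-activated potassium channels and the auxiliary proteins that travel with several of them. They were chosen by symbol, as every Kcnj, Kcnk, Kcnn, Kcnt, Kcnu, Kcne and Kcnip gene. Added to these were the BK channel gene Kcnma1, its beta subunit genes Kcnmb1 to Kcnmb4, and Dpp6 and Dpp10. The rule uses no measured value, but it was chosen with earlier results of these data known. The rule found 52 of the 55487 genes in the table. These were 15 inward rectifier genes, 14 two-pore domain genes, 4 small or intermediate conductance calcium-activated genes and 4 genes of the large conductance Slo family. The auxiliary genes were 4 BK beta, 4 KChIP, 5 KCNE and 2 DPP genes. RNA was sequenced from nuclei of excitatory neurons (2 libraries) and of inhibitory neurons (2 libraries), which had been isolated by fluorescence-activated sorting. Both groups came from wild-type adult mouse brain with the olfactory bulb left out, and all 4 libraries carried the same batch label. The age in weeks, the sort markers and whether the replicates came from separate animals were not given in the sources used here, and the p-values cover the spread among these libraries alone.

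Inward rectifiers pass potassium inward more readily than outward and hold neurons near rest, and their GIRK members open when G protein beta-gamma subunits are released by receptors such as the GABA-B receptor. Two-pore domain channels carry the background leak of potassium, while SK, BK and sodium-activated channels open on calcium or sodium entry and shape the repolarization and afterhyperpolarization of a spike. KChIP and DPP proteins assemble with Kv4 channels, which carry the fast A-type current of neuronal dendrites, and KCNE proteins modify KCNQ and other voltage-gated pores.

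Values were TPM, transcript abundances per length scaled to the same total in each library, so levels of different genes can be set side by side. How reads from unspliced RNA were counted was not given in the sources used here, and their part in such comparisons was not tested. TPM keeps no sequencing depth, so depth is unknown. Between 32207 and 32836 genes stood above 0 in a library. Slc17a7, which encodes a vesicular glutamate transporter, had 365 and 367 TPM in excitatory nuclei, against 60.2 and 52.2 TPM in inhibitory nuclei. Gad1, which makes GABA, had 45.0 and 38.1 TPM in excitatory nuclei, against 226 and 207 TPM in inhibitory nuclei. Of the marker lists, 9 of 10 excitatory genes were higher in excitatory nuclei, and 10 of 10 tested inhibitory genes were higher in inhibitory nuclei. The exception among excitatory genes was Slc17a6, at 22.4 and 20.3 TPM in excitatory nuclei, against 88.0 and 78.4 TPM in inhibitory nuclei. Slc17a6 also stands in the thalamic list below and is counted there again. Dlx5 passed the filter by its inhibitory values alone, so it had to differ, and it was listed at 0 in an excitatory library while the other inhibitory genes were not. Also higher in inhibitory nuclei were 10 of 10 striatal, 6 of 8 thalamic, 9 of 10 cerebellar granule and 7 of 7 Purkinje markers. Their summed level ran from 184 to 436 TPM per list in excitatory nuclei and from 374 to 1491 TPM per list in inhibitory nuclei. Of 12 astrocyte genes 1 was higher in excitatory nuclei (Slc1a2) and 1 in inhibitory nuclei (Slc4a4), with 4 of the 12 at an unadjusted p under 0.05 and a median log2 fold change of 0.31. The summed level of the astrocyte list was 628 and 652 TPM in excitatory nuclei, against 441 and 369.9 TPM in inhibitory nuclei, and its part in the results of members higher in excitatory nuclei was not tested. Limma called 0 of 12 oligodendrocyte, 6 oligodendrocyte precursor, 11 tested microglia and 8 tested endothelial and mural genes (0, 1, 1 and 1 of them at an unadjusted p under 0.05), and 1 of 4 tested choroid and ependymal genes (Clic6, which passed by its inhibitory values alone) was higher in inhibitory nuclei. The striatal, thalamic, granule and Purkinje lists moved with the members higher in inhibitory nuclei, and their part in those results was not tested. The groups are named by their library titles, and which neuron types each group held was not tested.

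A member was tested where it reached 1 TPM in at least 2 of the 4 libraries, and 41 of the 52 did. Of these, 9 stood higher in excitatory nuclei and 6 stood higher in inhibitory nuclei (limma on log2(TPM + 1), Benjamini-Hochberg adjusted p under 0.05 over all 26055 genes tested). The shares were 36.6% of tested members called in either direction, against 12.0% of all genes tested, split into 5.43% toward excitatory and 6.62% toward inhibitory nuclei. Among members averaging at least 10 TPM, 13 of 27 were called (48.1%), against 13.7% of protein-coding genes above the same level. The members had a median log2 fold change of -0.01, against -0.07 for all genes, and their median absolute log2 fold change was 0.525 against 0.300. The excitatory and inhibitory libraries did not overlap for 28 of the 41 members, with excitatory above for 16 and inhibitory above for 12. Over all genes tested the groups did not overlap for 56.2%, with excitatory above for 23.0% and inhibitory above for 33.3%. All 15 called members were among those without overlap. In these sorted bulk libraries, fewer nuclei of a type and less RNA per nucleus cannot be told apart. With any 1 library left out, the fit kept 1 residual degree of freedom and limma called 0 members in either direction, with 9 to 12 members toward excitatory and 6 to 9 toward inhibitory nuclei at an unadjusted p under 0.05. Of all 26055 genes 0 were called in these fits too, and at an unadjusted p under 0.05 there were between 7.88% and 10.2% of all genes toward excitatory and between 10.5% and 14.4% toward inhibitory nuclei. Each of the 15 kept its direction, which the lack of overlap fixed in advance. The log2 fold change of each stayed between 0.864 and 1.14 times the full value. The smallest p that an exact two-sided permutation test can give with 2 libraries per group is 0.333.

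**Figure D1:**
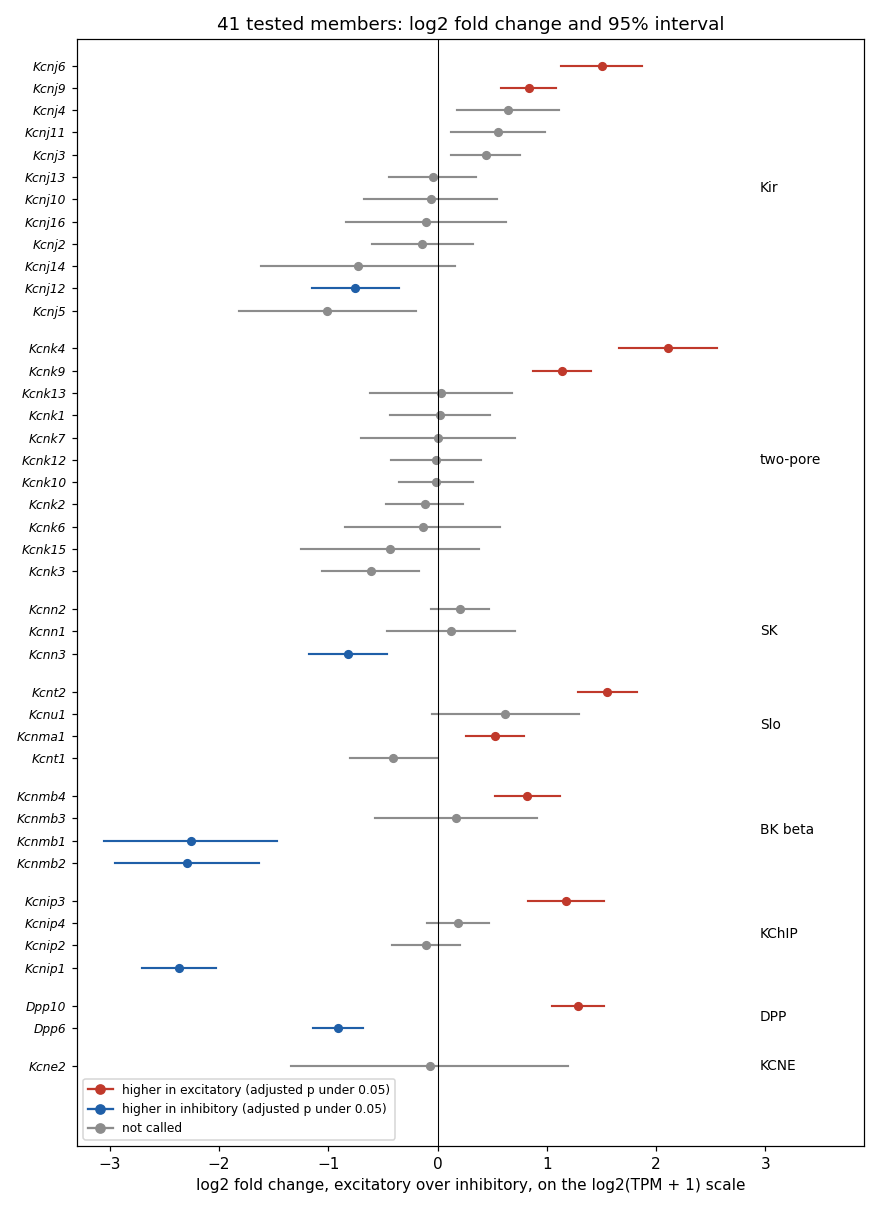
Log2 fold change of each of the 41 tested members (points; excitatory over inhibitory nuclei, log2(TPM + 1) scale) with its 95% interval from limma (lines), grouped by channel family. The 9 members higher in excitatory nuclei lie right of 0 and the 6 higher in inhibitory nuclei lie left of it, and the inward rectifier, BK beta, KChIP and DPP families each hold called members on both sides.

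The inward rectifiers were led by the GIRK genes, whose summed level was 324 and 370.2 TPM in excitatory nuclei, against 182 and 184 TPM in inhibitory nuclei. Kcnj6, a core subunit of neuronal GIRK channels (chromosome 16, 94748636 to 94997701, minus strand, mm10), had 117 and 137 TPM in excitatory nuclei, against 39.2 and 49.5 TPM in inhibitory nuclei. Both excitatory libraries stood above both inhibitory ones, 2.86-fold on the means (log2 fold change 1.50 ± 0.15, adjusted p = 0.00428). Kcnj9, a GIRK subunit that assembles with the others rather than alone, had 128 and 142 TPM in excitatory nuclei, against 74.8 and 75.8 TPM in inhibitory nuclei (log2 fold change 0.83 ± 0.10, adjusted p = 0.0069). Kcnj3, the subunit that joins Kcnj6 in most brain GIRK channels, had 77.7 and 90.7 TPM in excitatory nuclei, against 65.8 and 57.5 TPM in inhibitory nuclei. Its groups did not overlap, yet it was not called (log2 fold change 0.44 ± 0.13, adjusted p = 0.0828), and 31.1% of its exonic bases lie opposite exons of the long noncoding gene Gm26794. Kcnj5, the GIRK subunit best known from the heart atrium, had 0.375 and 0.595 TPM in excitatory nuclei, against 2.56 and 1.49 TPM in inhibitory nuclei, so it passed the filter by its inhibitory values alone (log2 fold change -1.01 ± 0.33, adjusted p = 0.11). As a share of summed GIRK TPM, Kcnj6 made up 36.2% and 37.0% in excitatory nuclei, against 21.5% and 26.9% in inhibitory nuclei. The share of Kcnj3 was lower in the same excitatory libraries, at 24.0% and 24.5%, against 36.1% and 31.2% in inhibitory nuclei, while Kcnj9 held 39.7% and 38.3% in excitatory nuclei, against 41.0% and 41.1% in inhibitory nuclei. The Kcnj6 to Kcnj3 ratio of TPM values was thus 1.51 in each excitatory library, against 0.596 and 0.861 in the inhibitory ones.

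Among the strong rectifiers of the Kir2 class, which clamp the resting potential, Kcnj12 was the called member. It had 12.2 and 12.2 TPM in excitatory nuclei, against 22.4 and 20.1 TPM in inhibitory nuclei, with no overlap (log2 fold change -0.75 ± 0.16, adjusted p = 0.0373). The call was lost under some settings, with adjusted p = 0.0666 without the filter on low values, 0.0515 after quantile normalization and 0.0564 with no trend in the variance prior. Kcnj4 was the most abundant Kir2 gene, at 60.1 and 45.3 TPM in excitatory nuclei, against 37.5 and 28.9 TPM in inhibitory nuclei. Its groups did not overlap and its log2 fold change pointed to excitatory nuclei, but it was not called (log2 fold change 0.65 ± 0.19, adjusted p = 0.0856). Kcnj14, the rarest of the class, had 0.247 and 1.05 TPM in excitatory nuclei, against 1.43 and 1.89 TPM in inhibitory nuclei, without overlap and without a call (log2 fold change -0.73 ± 0.36, adjusted p = 0.26). Kcnj4 therefore made up 65.9% and 62.0% of summed Kir2 TPM in excitatory nuclei, against 46.4% and 42.6% in inhibitory nuclei, and Kcnj12 13.4% and 16.7% in excitatory nuclei, against 27.7% and 29.5% in inhibitory nuclei. The sums themselves overlapped, at 91.1 and 73.0 TPM in excitatory nuclei and 80.8 and 67.9 TPM in inhibitory nuclei.

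Kcnj11, the pore of the ATP-sensitive channel that couples metabolism to excitability, had 20.0 and 25.0 TPM in excitatory nuclei, against 15.3 and 14.5 TPM in inhibitory nuclei. Its groups did not overlap and it was not called (log2 fold change 0.55 ± 0.18, adjusted p = 0.1). Its sulfonylurea receptor partner Abcc8 had 40.0 and 41.3 TPM in excitatory nuclei, against 28.7 and 38.6 TPM in inhibitory nuclei, and was not called either (log2 fold change 0.28 ± 0.17, adjusted p = 0.34). Kcnj13, known from the choroid plexus and retinal pigment epithelium, had 21.9 and 18.2 TPM in excitatory nuclei, against 21.6 and 19.7 TPM in inhibitory nuclei, with overlapping groups (log2 fold change -0.05 ± 0.16, adjusted p = 0.896). All of its exonic bases lie within the span of Gigyf2 on the opposite strand, 49.1% of them opposite Gigyf2 exons, and Gigyf2 had 147 and 166 TPM in excitatory nuclei, against 162 and 168 TPM in inhibitory nuclei. Whether the counting kept strands apart was not given in the sources used here, so the Kcnj13 values are uncertain. Kcnj10, the main inward rectifier of astrocytes, was picked after its values were seen and had 5.56 and 5.35 TPM in excitatory nuclei, against 6.36 and 5.18 TPM in inhibitory nuclei (log2 fold change -0.06 ± 0.25, adjusted p = 0.906). Kcnj2 and Kcnj16 were not called and ranged over the 4 libraries from 14.5 to 19.5 TPM and from 0.739 to 1.09 TPM. Kcnj1, Kcnj8 and Kcnj15 were not tested.

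**Figure D2:**
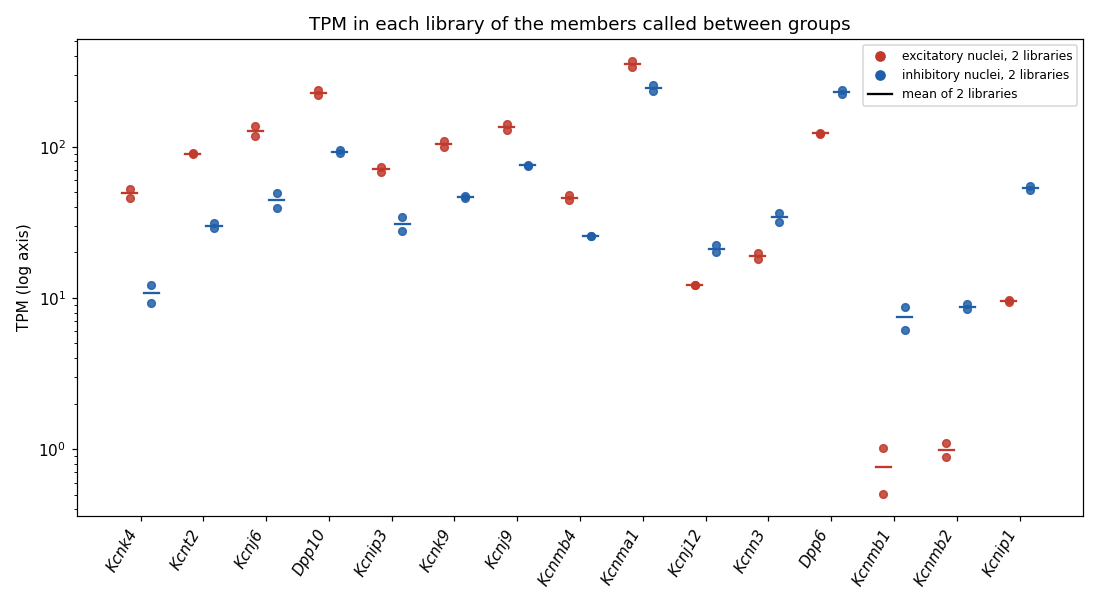
TPM (log axis) of the 15 called members in each library, with excitatory libraries in red and inhibitory libraries in blue, and a bar at the mean of 2 libraries; members run from the largest log2 fold change toward excitatory nuclei on the left to the largest toward inhibitory nuclei on the right. The groups do not overlap for any of the 15, and Kcnmb1 and Kcnmb2 stand at about 1 TPM or below in excitatory nuclei.

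Among the leak channels, both called members were higher in excitatory nuclei. Kcnk4, which encodes the mechanosensitive and fatty acid-sensitive channel TRAAK (chromosome 19, 6923966 to 6934515, minus strand), had 52.7 and 45.8 TPM in excitatory nuclei, against 12.2 and 9.20 TPM in inhibitory nuclei. The difference of 4.59-fold was the largest among the 9 members called toward excitatory nuclei (log2 fold change 2.11 ± 0.18, adjusted p = 0.00317). Of its exonic bases 13.1% are shared with exons of Catsperz on the same strand, a sperm channel gene whose table values were 17.1 and 20.7 TPM in excitatory nuclei, against 5.27 and 7.04 TPM in inhibitory nuclei. How reads in the shared bases were split was not given in the sources used here, so both values are uncertain. Kcnk2 and Kcnk10, the TREK genes of the same subfamily, were not called. Kcnk2 had 21.9 and 25.1 TPM in excitatory nuclei, against 26.2 and 24.8 TPM in inhibitory nuclei, a log2 fold change of -0.12 with a 95% interval from -0.47 to 0.24. Kcnk10 had 26.3 and 30.1 TPM in excitatory nuclei, against 28.1 and 28.8 TPM in inhibitory nuclei, a log2 fold change of -0.02 with a 95% interval from -0.35 to 0.32, and its sign turned under median ratio scaling. Kcnk4 thus made up 52.2% and 45.3% of the TPM summed over these 3 genes in excitatory nuclei, against 18.4% and 14.6% in inhibitory nuclei.

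Kcnk9, the acid-sensitive TASK channel that reports extracellular pH and is closed by Gq-coupled receptors, had 99.0 and 109.8 TPM in excitatory nuclei, against 46.0 and 47.4 TPM in inhibitory nuclei (log2 fold change 1.14 ± 0.11, adjusted p = 0.00374). It was the most abundant two-pore gene in excitatory nuclei, where both libraries stood above both inhibitory ones. Kcnk3, the other widely studied TASK gene, pointed the other way with 10.6 and 10.8 TPM in excitatory nuclei, against 18.3 and 15.6 TPM in inhibitory nuclei. Its groups did not overlap but it was not called (log2 fold change -0.61 ± 0.18, adjusted p = 0.0858). The Kcnk9 to Kcnk3 ratio of TPM values was 9.30 and 10.2 in excitatory nuclei, against 2.51 and 3.04 in inhibitory nuclei. Kcnk1, a weak rectifier with small currents known as TWIK, had 53.0 and 45.3 TPM in excitatory nuclei, against 57.4 and 40.7 TPM in inhibitory nuclei, with overlapping groups, a log2 fold change of 0.02 and a 95% interval from -0.44 to 0.48. Kcnk12, a pore gene that forms no current by itself, and Kcnk13 were not called and ranged from 16.8 to 19.9 TPM and from 3.77 to 4.72 TPM over the 4 libraries. Kcnk6, Kcnk7 and Kcnk15 were tested and not called, with a highest value of 2.07 TPM (Kcnk15 in an inhibitory library), and Kcnk5, Kcnk16 and Kcnk18 were not tested. Summed over all 14 genes, two-pore TPM was 291 and 294 in excitatory nuclei, against 218 and 194 in inhibitory nuclei.

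Among the small conductance channels, which set the afterhyperpolarization after a spike, Kcnn3 was higher in inhibitory nuclei. It had 18.1 and 19.9 TPM in excitatory nuclei, against 32.0 and 36.7 TPM in inhibitory nuclei (log2 fold change -0.82 ± 0.15, adjusted p = 0.0216). The adjusted p was 0.0536 without the filter and 0.0545 with no trend in the variance prior. Kcnn2, the SK gene of hippocampal and cortical dendrites, was the most abundant of the family at 81.9 and 86.0 TPM in excitatory nuclei, against 68.6 and 76.6 TPM in inhibitory nuclei. Its groups did not overlap, but the difference was small, with a log2 fold change of 0.21, a 95% interval from -0.06 to 0.47 and adjusted p = 0.28. Kcnn1 had 5.82 and 5.74 TPM in excitatory nuclei, against 5.47 and 4.98 TPM in inhibitory nuclei (log2 fold change 0.12 ± 0.24, adjusted p = 0.795), and Kcnn4, the intermediate conductance channel best known from red blood cells and T cells, stood at or under 0.191 TPM and was not tested. The Kcnn2 to Kcnn3 ratio of TPM values was 4.53 and 4.33 in excitatory nuclei, against 2.15 and 2.09 in inhibitory nuclei. The family sum overlapped, at 106 and 112 TPM in excitatory nuclei and 106 and 118 TPM in inhibitory nuclei.

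The Slo family held the most abundant member of all. Kcnma1, the BK pore that opens on calcium and depolarization together (chromosome 14, 23289431 to 24014491, minus strand), had 337 and 372 TPM in excitatory nuclei, against 234 and 258 TPM in inhibitory nuclei. The groups did not overlap, and the difference was 1.44-fold on the means (log2 fold change 0.53 ± 0.11, adjusted p = 0.0316). This was the smallest called difference, with adjusted p = 0.0808 without the filter and 0.129 with no trend in the variance prior. The sodium-activated genes Kcnt1 and Kcnt2, which encode channels known as Slack and Slick, pointed in opposite directions. Kcnt2 (chromosome 1, 140246158 to 140612067, plus strand) had 89.1 and 91.2 TPM in excitatory nuclei, against 28.8 and 31.3 TPM in inhibitory nuclei, 3.00-fold on the means (log2 fold change 1.56 ± 0.11, adjusted p = 0.00212). Kcnt1 had 132 and 169.7 TPM in excitatory nuclei, against 178 and 220.5 TPM in inhibitory nuclei, with no overlap and no call (log2 fold change -0.40 ± 0.16, adjusted p = 0.176). Their sum was 221 and 261 TPM in excitatory nuclei, against 207 and 252 TPM in inhibitory nuclei, so those groups overlapped. Within that sum Kcnt2 held 40.3% and 35.0% in excitatory nuclei, against 13.9% and 12.4% in inhibitory nuclei. Kcnu1, the pH-sensitive channel of sperm, had 6.51 and 9.40 TPM in excitatory nuclei, against 4.33 and 5.20 TPM in inhibitory nuclei, without overlap and without a call (log2 fold change 0.62 ± 0.27, adjusted p = 0.209).

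The study's title names the transcription factor EGR1, so the promoters of the members were searched on both strands for the EGR family motif GCGNGGGCG. RefSeq promoter windows of the build GRCm38.p6, running from 250 bases before to 50 bases after the start, were found for 43 of the 52 members. The motif was in 2 of their 61 windows (3.28%), against 1824 of all 32851 windows (5.55%). One of the 2 belonged to Kcnk2, which was not called, and the other to Kcnt2. A match describes these letters only and says nothing of binding. The 250 bases before the RefSeq start of Kcnt2 (chr1:140245468-140245717, plus strand) are shown because this was the single called member with a match, and capitals mark the motif, which reads GCGGGGGCG on the minus strand from position -27 to -19 before the start:
Kcnt2: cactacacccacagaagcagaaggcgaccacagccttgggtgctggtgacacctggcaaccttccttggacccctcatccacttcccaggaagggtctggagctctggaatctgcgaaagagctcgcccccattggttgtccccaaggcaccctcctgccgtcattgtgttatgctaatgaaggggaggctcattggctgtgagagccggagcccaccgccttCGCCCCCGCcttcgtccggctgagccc
Of its 250 bases 61.6% are G or C, with 10 CpG sites.

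The beta subunits, which tune the calcium sensitivity and gating of BK channels, went both ways. Kcnmb4, the neuronal beta subunit that slows gating, had 44.6 and 47.7 TPM in excitatory nuclei, against 25.6 and 25.7 TPM in inhibitory nuclei (log2 fold change 0.82 ± 0.12, adjusted p = 0.0118), and 10.7% and 20.8% of its exonic bases lie opposite exons of the antisense genes Kcnmb4os1 and Kcnmb4os2. Kcnmb2, which makes BK currents inactivate, had 0.880 and 1.10 TPM in excitatory nuclei, against 8.40 and 9.08 TPM in inhibitory nuclei (log2 fold change -2.29 ± 0.27, adjusted p = 0.0061). Kcnmb1, best known from smooth muscle, had 1.02 and 0.502 TPM in excitatory nuclei, against 6.16 and 8.74 TPM in inhibitory nuclei (log2 fold change -2.26 ± 0.32, adjusted p = 0.0109). Kcnmb2 and Kcnmb1 were therefore near or below 1 TPM in excitatory nuclei and stood 8.85-fold and 9.77-fold higher on the means in inhibitory nuclei. Each reached 1 TPM in 3 of the 4 libraries, and neither would have passed the filter without its inhibitory values, so their calls are not free of that selection. Kcnmb3 had 1.49 and 1.04 TPM in excitatory nuclei, against 0.907 and 1.10 TPM in inhibitory nuclei, with overlapping groups (log2 fold change 0.17 ± 0.30, adjusted p = 0.776). Kcnmb4 made up 92.9% and 94.8% of the beta subunit TPM in excitatory nuclei, against 62.3% and 57.6% in inhibitory nuclei. Kcnmb2 made up 1.83% and 2.18% in excitatory nuclei, against 20.5% and 20.4% in inhibitory nuclei. Kcnmb1 made up 2.13% and 0.996% in excitatory nuclei, against 15.0% and 19.6% in inhibitory nuclei. Its values are uncertain, as described with its locus below, so the shares and the sum of this family are uncertain too. The sum over the family was 48.0 and 50.3 TPM in excitatory nuclei, against 41.1 and 44.6 TPM in inhibitory nuclei, while the pore gene Kcnma1 was far above it in every library.

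The calcium-binding KChIP genes likewise included members called in each direction. Kcnip1 (chromosome 11, 33629339 to 33993152, minus strand) had 9.62 and 9.36 TPM in excitatory nuclei, against 55.0 and 51.4 TPM in inhibitory nuclei, 5.60-fold higher on the means in inhibitory nuclei (log2 fold change -2.37 ± 0.14, adjusted p = 0.00156). Kcnip3, also known as DREAM or calsenilin for its roles in transcription and presenilin binding, had 73.3 and 68.2 TPM in excitatory nuclei, against 27.6 and 34.3 TPM in inhibitory nuclei (log2 fold change 1.17 ± 0.14, adjusted p = 0.0066). The Kcnip3 to Kcnip1 ratio of TPM values was 7.61 and 7.29 in excitatory nuclei, against 0.503 and 0.667 in inhibitory nuclei. Kcnip2 and Kcnip4 made up most of the family in both groups. Kcnip2 had 73.1 and 84.7 TPM in excitatory nuclei, against 78.9 and 91.0 TPM in inhibitory nuclei, with overlapping groups, a log2 fold change of -0.11 and a 95% interval from -0.42 to 0.21. Kcnip4 had 101 and 112 TPM in excitatory nuclei, against 99.7 and 87.8 TPM in inhibitory nuclei, without overlap and without a call (log2 fold change 0.19 ± 0.12, adjusted p = 0.359). The family sum was 257 and 275 TPM in excitatory nuclei and 261 and 264 TPM in inhibitory nuclei, so it overlapped while its make-up differed. Kcnip1 held 3.74% and 3.41% of it in excitatory nuclei, against 21.0% and 19.4% in inhibitory nuclei, and Kcnip3 held 28.5% and 24.9% in excitatory nuclei, against 10.6% and 13.0% in inhibitory nuclei.

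Kcnmb1 and Kcnip1 share a locus. The whole of Kcnmb1 (chromosome 11, 33963013 to 33973641, plus strand) lies within the span of Kcnip1 (33629339 to 33993152, minus strand), 19.5 kb from the Kcnip1 start, with 0 of its exonic bases opposite Kcnip1 exons. Both genes were higher in inhibitory nuclei, and the Kcnmb1 to Kcnip1 ratio of TPM values was 0.106 and 0.0536 in excitatory nuclei, against 0.112 and 0.170 in inhibitory nuclei. Of 2 further opposite-strand genes in the Kcnip1 introns, Gm12119 was called, with 3.44 and 3.11 TPM in excitatory nuclei, against 19.2 and 27.0 TPM in inhibitory nuclei (log2 fold change -2.48 ± 0.24, adjusted p = 0.00412). Gm12120 was not called, with 1.50 and 1.48 TPM in excitatory nuclei, against 4.03 and 11.7 TPM in inhibitory nuclei (log2 fold change -1.69 ± 0.47, adjusted p = 0.0719). Whether the counting kept strands apart was not given in the sources used here, so the Kcnmb1 values are uncertain, and the part of Kcnip1 intron reads in them was not tested. RefSeq gives 3 start windows for Kcnip1 and 1 for Kcnmb1. The 250 bases before the Kcnip1 start nearest the annotated gene start and before the Kcnmb1 start are shown to set 2 start regions of this nested pair beside each other, with every CpG site in capitals (Kcnip1 at chr11:33993194-33993443, minus strand, and Kcnmb1 at chr11:33962763-33963012, plus strand):
Kcnip1: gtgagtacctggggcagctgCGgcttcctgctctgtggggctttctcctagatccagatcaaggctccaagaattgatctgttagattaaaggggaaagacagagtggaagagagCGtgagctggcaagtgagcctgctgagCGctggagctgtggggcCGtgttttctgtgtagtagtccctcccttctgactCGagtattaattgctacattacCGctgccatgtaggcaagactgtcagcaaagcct
Kcnmb1: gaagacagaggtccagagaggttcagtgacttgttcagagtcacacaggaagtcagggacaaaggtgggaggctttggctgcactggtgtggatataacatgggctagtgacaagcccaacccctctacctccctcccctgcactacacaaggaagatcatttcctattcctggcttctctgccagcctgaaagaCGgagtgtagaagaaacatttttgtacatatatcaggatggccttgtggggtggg
The Kcnip1 stretch holds 6 CpG sites and the Kcnmb1 stretch 1, and 52.8% and 50.8% of their bases are G or C. The 300-base windows of the 3 Kcnip1 starts differ, with 7 CpG sites in the one shown and 16 and 4 in the others, and which start these nuclei use was not tested.

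The dipeptidyl peptidase-like proteins, inactive peptidases that speed Kv4 gating and bring it to the surface, formed a second opposed pair. Dpp10 (chromosome 1, 123321471 to 124045559, minus strand) had 221 and 236 TPM in excitatory nuclei, against 91.0 and 94.8 TPM in inhibitory nuclei (log2 fold change 1.29 ± 0.10, adjusted p = 0.00232). Dpp6 (chromosome 5, 26817203 to 27727505, plus strand) had 124 and 122 TPM in excitatory nuclei, against 225 and 239 TPM in inhibitory nuclei (log2 fold change -0.91 ± 0.09, adjusted p = 0.00461). For neither gene did the groups overlap, and the sum of both genes was 345 and 358 TPM in excitatory nuclei, against 316 and 333 TPM in inhibitory nuclei. The Dpp10 to Dpp6 ratio of TPM values was 1.78 and 1.94 in excitatory nuclei, against 0.405 and 0.397 in inhibitory nuclei. The pores these proteins join were not called: Kcnd2 had 85.5 and 82.3 TPM in excitatory nuclei, against 109 and 104 TPM in inhibitory nuclei (log2 fold change -0.34 ± 0.10, adjusted p = 0.0787), and Kcnd3 had 67.0 and 67.3 TPM in excitatory nuclei, against 61.9 and 67.1 TPM in inhibitory nuclei (log2 fold change 0.06 ± 0.11, adjusted p = 0.778). Each of the pairs Dpp10 and Dpp6, Kcnip3 and Kcnip1, and Kcnmb4 and Kcnmb2 thus held a member higher in each group, while each family's summed TPM differed by at most 1.15-fold on the means.

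**Figure D3:**
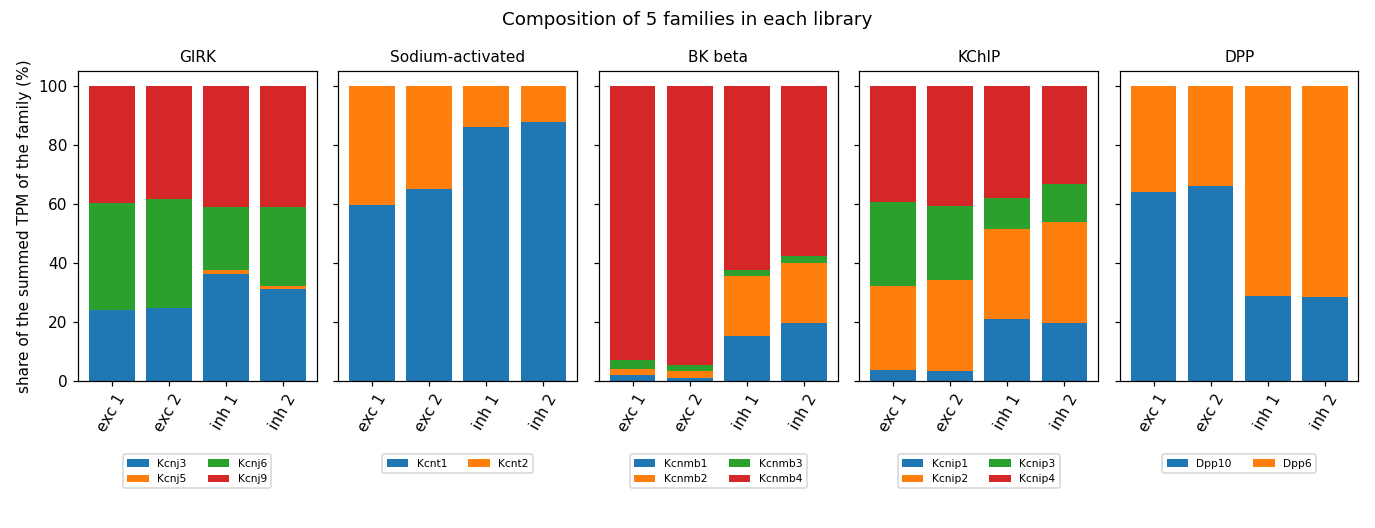
Share of each member in the summed TPM of its family (percent, stacked bars) in each of 2 excitatory (exc) and 2 inhibitory (inh) libraries, for 5 families. Dpp10 takes 64.0% and 65.9% of the DPP sum in excitatory nuclei, against 28.8% and 28.4% in inhibitory nuclei, and Kcnip1, Kcnmb1 and Kcnmb2 take larger shares in both inhibitory libraries. The Kcnmb1 values are uncertain, and so are the BK beta shares.

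The KCNE genes were low throughout. Kcne2, whose product modifies several voltage-gated pores and is abundant in choroid plexus, was the tested member, with 1.28 and 0 TPM in excitatory nuclei, against 0.162 and 1.17 TPM in inhibitory nuclei, and its values differed more within the groups than between their means (log2 fold change -0.07 ± 0.52, adjusted p = 0.951). Kcne1, Kcne1l, Kcne3 and Kcne4 were not tested. In all, 11 members did not pass the filter, and the highest value among them was 1.28 TPM, reached by Kcnk18 in an inhibitory library. Of the 52 members, 9 stayed under 1 TPM in every library and 0 were listed at 0 in every library. At the other end 6 members averaged at least 100 TPM over the 4 libraries. The summed TPM of all members was 2077 and 2224 in excitatory nuclei, against 1696 and 1765 in inhibitory nuclei.

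Nuclear RNA contains unspliced transcripts, and several members are long genes with other annotated features inside their introns. Kcnip4 (chromosome 5, 48389502 to 49524907, minus strand) held 24 such features on its own strand, and their TPM was lower the farther they lay from its start. The Spearman coefficient between TPM and distance was -0.90 and -0.86 in the excitatory libraries and -0.78 and -0.80 in the inhibitory ones (across 24 features of 1 gene, which share libraries and are not independent). The feature nearest the start, 2900064K03Rik at 5.97 kb, had 214 and 232 TPM in excitatory nuclei, against 166 and 159 TPM in inhibitory nuclei, and was called toward excitatory nuclei (log2 fold change 0.45 ± 0.10, adjusted p = 0.0357). The farthest, Gm43831 at 987 kb, had 9.50 and 16.0 TPM in excitatory nuclei, against 14.9 and 16.3 TPM in inhibitory nuclei. The log2 fold change of these features was lower with distance as well (Spearman coefficient -0.94), running between 0.48 and -0.31. The 5 features on the opposite strand stood at levels like their neighbours, and Gm43670 at 98.1 kb was called toward excitatory nuclei (log2 fold change 0.59 ± 0.10, adjusted p = 0.0173). Kcnip4 itself stood near the median of its same-strand features, at a ratio of 1.04 and 0.966 in excitatory nuclei and 1.11 and 0.965 in inhibitory nuclei.

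In Dpp10, the 9 same-strand intronic features summed to 211 TPM in each excitatory library, against 186 and 212 TPM in inhibitory nuclei, and limma called 0 of the 9 (0 at an unadjusted p under 0.05). Their log2 fold changes ran from -0.22 to 0.17 with a median of 0.11, whereas Dpp10 itself stood at 1.29. The ratio of Dpp10 to its median feature was 8.45 and 11.5 in excitatory nuclei, against 5.35 and 4.59 in inhibitory nuclei. In Dpp6, both same-strand intronic features moved with the gene: Gm43776 had 11.4 and 16.0 TPM in excitatory nuclei, against 36.3 and 42.0 TPM in inhibitory nuclei (log2 fold change -1.46 ± 0.20, adjusted p = 0.00917), and Gm43502 had 25.2 and 24.4 TPM in excitatory nuclei, against 70.5 and 71.0 TPM in inhibitory nuclei (log2 fold change -1.48 ± 0.11, adjusted p = 0.00244). Of 5 opposite-strand features in Dpp6, 3 were called toward inhibitory nuclei, and the log2 fold changes of the 5 ran from -2.39 to -0.32. The farthest from the Dpp6 start were not called, Speer4b at 678 kb with -0.40 and Gm16058 at 735 kb with -0.32. The single same-strand features of Kcnt2 and Kcnmb2 were called in the direction of their host genes, Gm37777 in Kcnt2 with a log2 fold change of 1.74 and Gm37834 in Kcnmb2 with -2.69. The single same-strand feature of Kcnip3, Gm22613, was not called (log2 fold change 0.71 ± 0.27, adjusted p = 0.158). In Kcnn2, which was not called, the opposite-strand pseudogene Gm10540 was called toward inhibitory nuclei (log2 fold change -2.23 ± 0.41, adjusted p = 0.0226). These features were read from the annotation after the values of their host genes were seen. How the counting treated reads from unspliced RNA was not given in the sources used here.

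**Figure D4:**
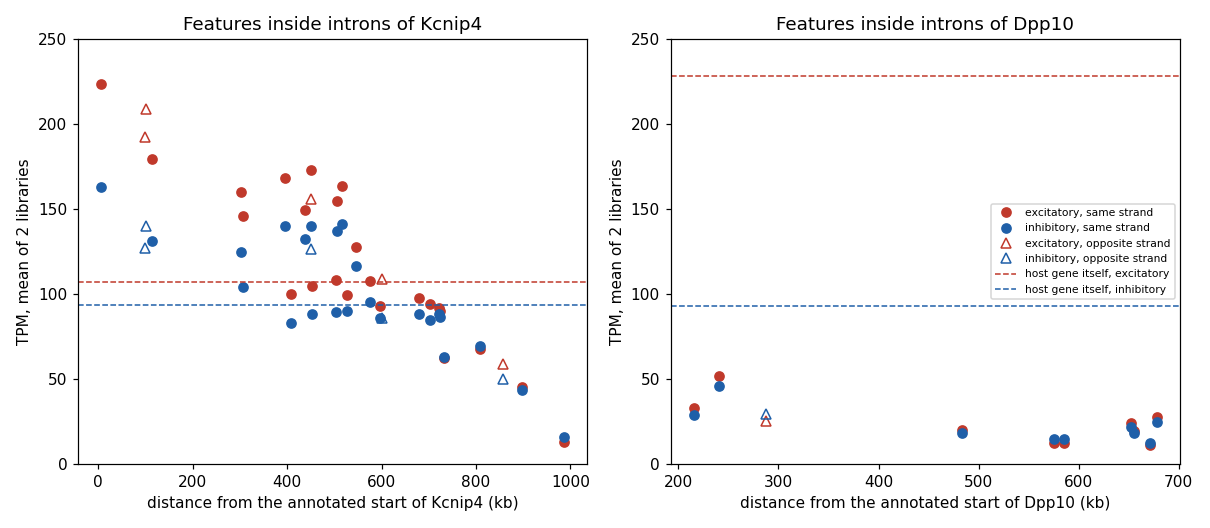
TPM (mean of 2 libraries per group) of annotated features inside introns of Kcnip4 and Dpp10 against distance in kb from the annotated start of the host gene; filled circles lie on the host strand, open triangles on the opposite one, red is excitatory, blue is inhibitory, and dashed lines give the host gene itself. In Kcnip4 the TPM is lower with distance in both groups, while in Dpp10 the features of both groups lie together at 11.1 to 51.6 TPM, below the host gene.

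Genes that drive or assemble with the members were listed separately, 55 in all, of which 53 were tested. Called toward excitatory nuclei were 6 of them and toward inhibitory nuclei 3, which leaves 44 without a call. These are 11.3% and 5.66% of the partners tested, against 5.43% and 6.62% of all genes, so the share toward inhibitory nuclei was near that of all genes. On the GIRK pathway, 3 of 20 genes were higher in excitatory nuclei, as Kcnj6 and Kcnj9 were. Gabbr2, the GABA-B receptor subunit that couples to G proteins, had 129 and 126 TPM in excitatory nuclei, against 95.7 and 95.7 TPM in inhibitory nuclei (log2 fold change 0.41 ± 0.09, adjusted p = 0.0427). The others were Rgs6 and Rgs7, regulators that speed the closing of GIRK channels. Rgs6 had 89.3 and 108 TPM in excitatory nuclei, against 50.2 and 43.8 TPM in inhibitory nuclei (log2 fold change 1.05 ± 0.14, adjusted p = 0.00832). Rgs7 had 126 and 124 TPM in excitatory nuclei, against 77.7 and 80.0 TPM in inhibitory nuclei (log2 fold change 0.66 ± 0.09, adjusted p = 0.0112). The G protein gamma subunit gene Gng7, which is abundant in striatum, was the pathway member higher in inhibitory nuclei, at 14.6 and 14.8 TPM in excitatory nuclei, against 40.7 and 37.5 TPM in inhibitory nuclei (log2 fold change -1.35 ± 0.14, adjusted p = 0.00455). Gabbr1, the ligand-binding subunit, had 304 and 343 TPM in excitatory nuclei, against 401 and 373 TPM in inhibitory nuclei, and was not called (log2 fold change -0.26 ± 0.11, adjusted p = 0.188).

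Among BK partners, Lingo1, a membrane protein that can act as a BK auxiliary subunit, was higher in excitatory nuclei, at 122 and 124 TPM in excitatory nuclei, against 39.2 and 35.0 TPM in inhibitory nuclei (log2 fold change 1.70 ± 0.11, adjusted p = 0.00164). Lrrc38, a BK gamma subunit gene, was higher in inhibitory nuclei but low, at 0.765 and 0.134 TPM in excitatory nuclei, against 2.89 and 2.89 TPM in inhibitory nuclei (log2 fold change -1.46 ± 0.34, adjusted p = 0.0455), and passed the filter by its inhibitory values alone. The 5 calcium channel genes listed as partners of BK were not called. Csnk2b, a casein kinase subunit found in SK channel complexes, was higher in excitatory nuclei (log2 fold change 0.64 ± 0.12, adjusted p = 0.0233). Among pores that KCNE proteins can join, Kcnq5, an M-current subunit, was higher in excitatory nuclei, at 89.7 and 98.5 TPM in excitatory nuclei, against 58.4 and 61.3 TPM in inhibitory nuclei (log2 fold change 0.64 ± 0.11, adjusted p = 0.0171). Kcnh2, the ERG channel gene, was higher in inhibitory nuclei, at 14.9 and 17.9 TPM in excitatory nuclei, against 49.8 and 58.3 TPM in inhibitory nuclei (log2 fold change -1.66 ± 0.16, adjusted p = 0.00374). Gabbr2, Rgs7, Kcnq5 and Csnk2b lost their calls with no trend in the variance prior, and Gabbr2 also without the filter. Lrrc38 lost its call under 4 settings (adjusted p between 0.0524 and 0.0958 with limma), a pseudocount of 0.1 and no filter among them.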

How the data were processed

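RNA was measured in sorted nuclei, in 2 excitatory and 2 inhibitory libraries grouped by their titles. Per the labels' protocols, ribosomal RNA was depleted and strand-specific libraries were read as pairs. What the authors deposited is a table of TPM per gene and library, in which length and depth are divided out. StringTie 2.2.1, HISAT2 2.2.1, Bowtie2 2.3.5, fastp 0.23.4 and the build mm10 stand in the submitters' processing notes. Their roles, the annotation release, any use of strand in counting and the treatment of unspliced reads were not given in the sources used here. Depth is unknown, so no counting interval was computed.

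Genes reaching 1 TPM in 2 or more of the 4 libraries (26055) were taken to log2(TPM + 1). Excitatory was compared with inhibitory in limma 3.58.1 (R 4.3.3) with a variance trend, group as the sole term, a prior of 4.04 degrees of freedom and 2 residual ones. Two-sided p-values were Benjamini-Hochberg adjusted over all genes tested, with a threshold of 0.05. The fit was also run on simulated libraries with independent noise and with changes planted in the more abundant genes only. That run does not cover changes in low genes or libraries that depend on each other. A log2 fold change (± standard error) is a difference of mean log2(TPM + 1), which understates changes of low genes, and a fold is a ratio of mean TPM. A 95% interval is from the same fit.

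Positions, exons and overlaps came from GENCODE M21, and promoters from RefSeq (GRCm38.p6). All 52 members were matched in the annotation. Given in full were called members, the 3 most abundant others of each family and members whose groups did not overlap with a log2 fold change of at least 0.5 in size. Of the partners, called ones and those of a described channel were named. The members, lists and rule were chosen with earlier results of these data known. The alternatives tried were another pseudocount, other filters, median ratio scaling, quantile normalization, protein-coding genes only, no variance trend, the replicate number as a block and leaving out each library. Plots used Python 3.11.15 and matplotlib 3.10.9.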

Additional observations from a re-analysis of the deposited data

How the results depend on the processing

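Of members called toward excitatory nuclei there were 9, and between 8 and 11 under every alternative that kept all 4 libraries; toward inhibitory nuclei there were 6, and between 4 and 8. With 1 library left out limma called 0 of all 26055 genes, and so 0 members and 0 partners in each direction, with 9 to 12 members and 7 to 10 partners toward excitatory nuclei and 6 to 9 members and 3 to 5 partners toward inhibitory nuclei at an unadjusted p under 0.05, and the called members and partners kept their direction. That direction was fixed in advance, because the groups did not overlap for any called member or partner. Partners higher in excitatory nuclei fell to 2 with no variance trend, against 6. Kcnj3 was called under median ratio scaling (adjusted p = 0.0416) and with protein-coding genes only (0.0334), where Kcnj11, Kcnj5 and Kcnk3 were called too (0.0428, 0.0434 and 0.0498). Replicate numbers were not shown to pair the libraries (correlation of same-number deviations 0.0957). With the replicate block 10 members were called toward excitatory and 7 toward inhibitory nuclei, Kcnj4 (adjusted p = 0.0135) and Kcnt1 (0.0160) being the additions. Median ratio scaling moved the median log2 fold change of all genes to -0.004, against -0.073 as deposited. It moved the log2 ratio of summed TPM to 0.72 for TREK and TRAAK, 0.19 for DPP and 0.092 for KChIP. As deposited, these sums stood 1.56-fold, 1.08-fold and 1.01-fold higher on the means in excitatory nuclei. The scaling divided all genes of a library by the same factor (0.947 and 1.01 for excitatory, 1.02 and 1.05 for inhibitory libraries). It therefore raised this ratio in every family. Log2 fold changes of at most 0.14 in size turned sign under at least 1 alternative for 10 of the 41 tested members, 0 of them called (Kcne2, Kcnj2, Kcnj10, Kcnj13, Kcnj16, Kcnk1, Kcnk7, Kcnk10, Kcnk12 and Kcnk13). Kcne2 stood at 0.018 after quantile normalization and between -0.67 and 0.52 with 1 library left out. Kcnj13 stood at 0.027 under median ratio scaling, 0.012 after quantile normalization and between -0.17 and 0.080 with 1 library left out. Kcnj10 stood at 0.0013 under median ratio scaling, 0.060 after quantile normalization and between -0.19 and 0.063 with 1 library left out. With 1 library left out, Kcnk1 stood between -0.22 and 0.26. Kcnk10 stood at 0.058 under median ratio scaling, 0.029 after quantile normalization and between -0.11 and 0.079 with 1 library left out. The causes were not tested. A share within a family is not altered by scaling a library.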

Other observations

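Over all 4 libraries, 6 members averaged at least 100 TPM. In descending order of mean TPM these were Kcnma1, Dpp6, Kcnt1, Dpp10, Kcnj9 and Kcnip4, so the BK pore, both DPP genes, a sodium-activated pore, a GIRK subunit and a KChIP gene lead the set. Kcnma1, Dpp6, Dpp10 and Kcnip4 are long genes, of 725061, 910303, 724089 and 1135406 bases. The part of unspliced RNA in this order was not tested. Kcnma1 alone held 59.7% and 57.9% of summed Slo family TPM in excitatory nuclei, against 52.5% and 50.1% in inhibitory nuclei. Promoter windows of members called toward excitatory nuclei had a median CpG observed over expected ratio of 0.409 over 11 windows, and those called toward inhibitory nuclei 0.372 over 10 windows, against 0.435 over the 29 windows of members that were tested and not called and 0.384 for all windows. The differences were not tested.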
